A study of Schizosaccharomyces pombe with 3 samples.

Results

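The 5 genes described here, *clr3*, *mit1*, *clr1*, *clr2* and *ccq1*, encode the subunits of SHREC, a complex that silences transcription in fission yeast heterochromatin. They are 5 of 36 genes that could be placed on a tiling microarray, the other 31 being further silencing factors and controls. Each gene was taken as a run of every other numbered probe, with 27 probes for *clr3*, 55 for *mit1*, 47 for *clr1*, 4 for *clr2* and 6 for *ccq1*. The probes numbered between those of a gene belong to the opposite strand and were read in the same way, which gave 139 probes on the gene strands and 134 on the opposite strands, of 174063 numbered probes.

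RNA of *Schizosaccharomyces pombe* was compared on 3 arrays, each with a mutant in Cy5 and wildtype in Cy3. *dhp1-1* (strain p1088) was hybridised against wildtype p1087 on 2 arrays from biological replicates, and *din1Δ* (strain p1044) against wildtype p344 on 1 array. All cells were grown at 30°C to log phase in YEA, a rich medium, and their RNA was freed of ribosomal RNA and copied to cDNA with oligo(dT) and random hexamers. *dhp1-1* is a temperature-sensitive allele of the essential 5′-3′ exoribonuclease gene *dhp1*, in which a carboxyl-terminal part is replaced by *ura4*+, so it is a partial loss of function. Strain p1088 also carries a *ura4*+ reporter at the outer repeat of a centromere and an *ade6*+ reporter at *mat2*. *din1Δ* lacks Din1, the pyrophosphohydrolase that binds Dhp1. The further genotypes of p1087, p1044 and p344 are not given in the sources used here, and each genotype is a single strain. The wildtype strains differ between the mutants, so a difference between *dhp1-1* and *din1Δ* includes any difference between the wildtype strains. No array had its dyes swapped. A dye effect and a change in RNA therefore cannot be told apart against wildtype, at a single probe or in the mean of a run.

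SHREC is known for removing acetyl groups from histone H3 and for keeping RNA polymerase II off heterochromatic repeats at centromeres, telomeres and the mating type locus. Clr3 is its histone deacetylase and Mit1 its ATP-dependent chromatin remodeler, and Clr1 and Clr2 are further subunits that silencing needs. Ccq1 is a telomere protein of the shelterin complex that brings SHREC to chromosome ends. A loss of SHREC mRNA in a silencing mutant would touch the machinery of silencing itself, which is why the levels of these genes matter in the *dhp1-1* strain. The opposite strands bear on RNA that is not the mRNA, since Dhp1 takes part in termination and in the decay of unwanted transcripts.

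Ratios are given as log2(mutant/wildtype), so that a value below 0 is less RNA in the mutant, and are means over the probes of a run. In *dhp1-1*, *clr2* and *clr3* RNA was lower than in wildtype, at 0.656 and 0.731 of its level, while no change of *mit1*, *clr1* or *ccq1* passed the test. Against wildtype, 2 of the 5 genes passed an adjusted p of 0.05 (limma, Benjamini-Hochberg over 8743 features), both lower and 0 higher. Of all features tested, 29.3% were called, 10.5% as lower and 18.8% as higher. In 4 of the 5 genes both *dhp1-1* replicates were below 0, which held for 33.9% of all features. No gene was past 1.6-fold in the mean of the *dhp1-1* replicates, against 4.44% of all features, and none was past it in *din1Δ*, against 1.83%. In 6 of 10 other choices of processing or replicate the *dhp1-1* count stayed at 0. In 4 it was 1 (*clr2*), with the scanner's ratio, the deposited values, the median over probes or without replicate 1. None of the 5 genes differed between *dhp1-1* and *din1Δ* at an adjusted p of 0.05, where 13.6% of all features did, and 1 of them (*clr2*) did at an unadjusted p of 0.05. Of the 5 opposite strands, 2 were higher in *dhp1-1* than in wildtype, those of *clr1* and *clr2*, and 0 were lower. The RNA came from whole cultures, so less RNA per cell and fewer cells with the RNA cannot be told apart.

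**Figure D1:**
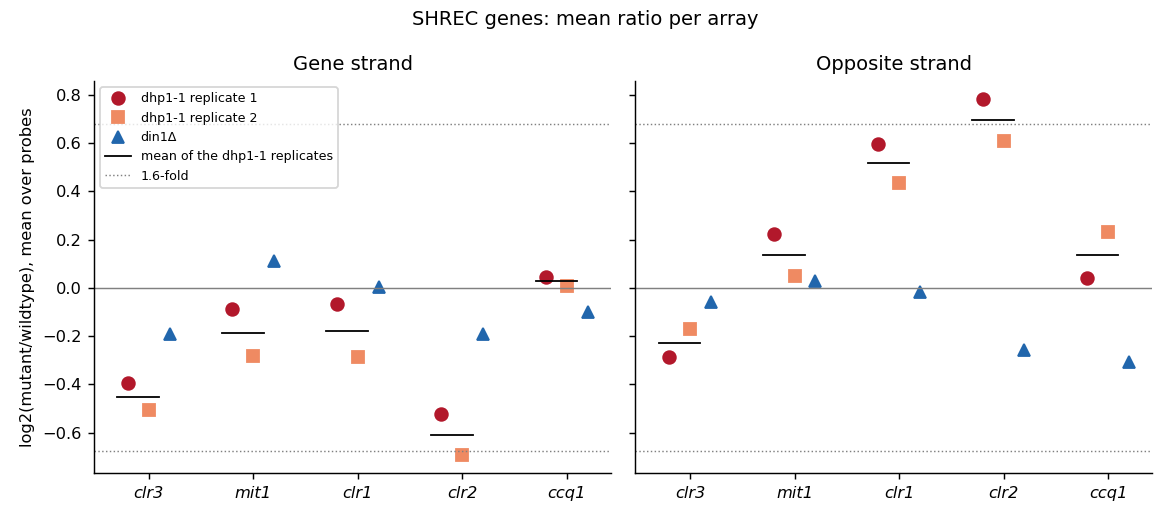
Mean log2(mutant/wildtype) over the probes of each SHREC gene (left) and of its opposite strand (right), with 1 point per array, the mean of both *dhp1-1* replicates as a line and 1.6-fold as dotted lines. On the gene strand *clr2* lies lowest at -0.52 and -0.69 in *dhp1-1*, and on the opposite strand *clr2* and *clr1* lie highest while *din1Δ* lies at or below 0 there.

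On the arrays of *dhp1-1* replicate 1, *dhp1-1* replicate 2 and *din1Δ*, 71.7%, 67.3% and 67.2% of the numbered probes were well above background in wildtype. In the mutant 84.3%, 71.0% and 66.1% were, a share that was highest on the first *dhp1-1* array. Replicate 1 of *dhp1-1* and *din1Δ* shared a slide, and replicate 2 lay on another. The ratio of replicate 2 was below that of replicate 1 in all 5 SHREC genes and in 25 of the 31 other placed genes, with a median gap of -0.17 and -0.21. It was below in 3 of the 5 opposite strands. Over all tiles the median ratio was 0.028 in replicate 1 and 0.016 in replicate 2. The part of the slide in the gaps of the genes was not tested.

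RNA of the SHREC genes was measured well above background in wildtype. All 27 probes of *clr3*, all 55 of *mit1* and all 47 of *clr1* were above background in the wildtype channel of each array. For *clr2* this held for 4, 2 and 4 of 4 probes and for *ccq1* for 5 of 6 on each array, the first probe of *ccq1* being below background throughout. Of the opposite strand probes, those above background in wildtype came to 13, 8 and 11 of 26 probes for *clr3*, 14, 11 and 12 of 54 for *mit1*, 23, 11 and 19 of 46 for *clr1*, 3, 2 and 2 of 3 for *clr2* and 2, 1 and 2 of 5 for *ccq1*, in the order *dhp1-1* replicate 1, replicate 2 and *din1Δ*. The short runs of *clr2* and *ccq1* go with a wider spacing of the probes. The annotated spans of *clr2*, *clr3* and *ccq1* are within 1.04-fold of each other. The placed genes of chromosome I, which holds *clr2*, had 1 to 8 probes each, those of chromosome II, with *clr3*, *mit1* and *clr1*, had 9 to 84, and those of chromosome III, with *ccq1*, had 5 to 37.

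**Figure D2:**
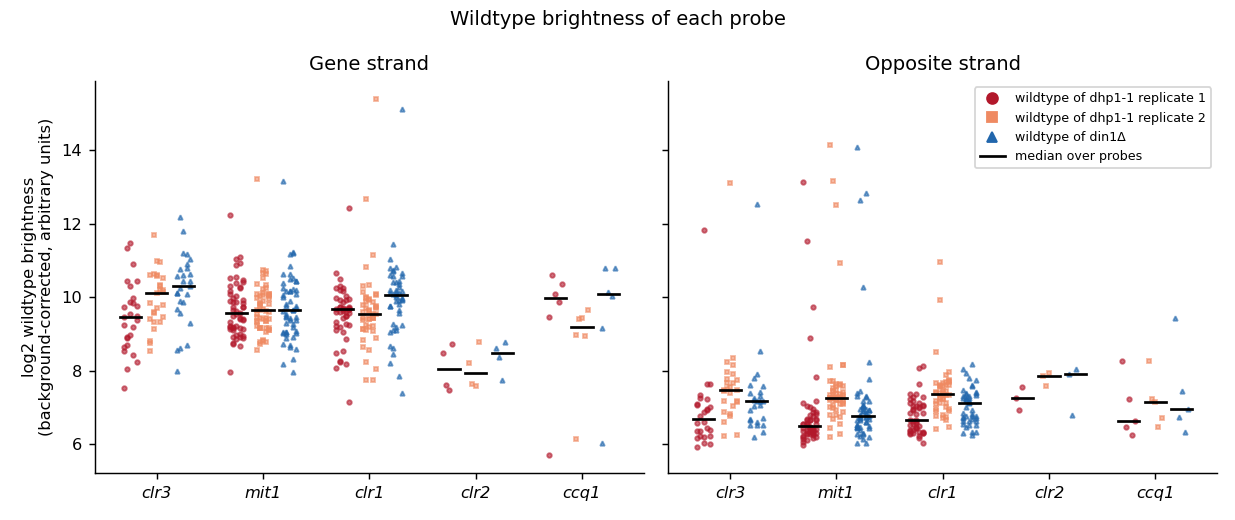
Log2 brightness of the wildtype channel, corrected for background, of each probe of the SHREC genes (left) and of their opposite strands (right), with 1 marker per probe and array and the median over the probes of a run as a bar. Most gene strand probes lie between 8 and 11, and most opposite strand probes lie below 8, apart from a few single bright probes of *clr3*, *mit1* and *clr1*.

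*clr3*, which encodes the deacetylase, had a ratio of -0.40 in *dhp1-1* replicate 1, -0.51 in replicate 2 and -0.19 in *din1Δ*. It was thus lower on all 3 arrays, and the *dhp1-1* arrays lay close together and below *din1Δ*. The mean in *dhp1-1* was -0.45 ± 0.08 (SD, n = 2), 1.37-fold lower than wildtype, with a 95% interval of -0.64 to -0.27 (adjusted p = 0.00043, limma). The lower level was spread over the whole run, as 26 of 27 probes were below 0 on each *dhp1-1* array and 25 were below 0 on both. With the run split into 4 sections of about equal size, in order of probe number, the section means were -0.36, -0.51, -0.41 and -0.30 in replicate 1 and -0.50, -0.45, -0.74 and -0.31 in replicate 2. No section stood at or above 0 in *dhp1-1*. In *din1Δ* 22 of 27 probes were below 0, and the sections had means of -0.10, -0.40, -0.24 and 0.00. The mean of the last section is made of 4 probes below 0 and of 2 above it, with 1 at 0.82. The difference between *dhp1-1* and *din1Δ* was -0.26 (95% interval -0.58 to 0.06, adjusted p = 0.308). On the shared slide alone it was -0.21. The interval covers no difference as well as a lower level in *dhp1-1*.

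On its opposite strand *clr3* was at -0.29 and -0.17 in *dhp1-1* and at -0.06 in *din1Δ*, a mean of -0.23 ± 0.08 (SD, n = 2) that did not pass the test (adjusted p = 0.0558) but lay below 0 in both replicates. It passed in 6 of the 10 alternatives with a test, and with tiles of as many probes as the run its adjusted p was 0.0458. A single bright probe in the middle of this run, the 13th, was at -1.05, -0.97 and -1.29, lower on all 3 arrays. Before the first *clr3* probe, 5 opposite strand probes next to *whi5*, the gene on the side of the lower numbers, had means of -1.37 and -1.13 in *dhp1-1* and 0.59 in *din1Δ*. Each of these 5 probes was below 0 on both *dhp1-1* arrays, where the highest was at -0.53, and above 0 in *din1Δ*, where the lowest was at 0.36. In the *dhp1-1* channel 3 of the 5 were above background in replicate 1 and 0 in replicate 2, so the size of the lower values is not certain. The 5 probes were chosen for their place, were not tested and do not belong to *clr3*. The annotated noncoding RNA SPNCRNA.1331 spans *clr3*, and RNA of *clr3* and of SPNCRNA.1331 cannot be told apart by name on these strands.

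*mit1*, the remodeler gene, had a ratio of -0.09 in *dhp1-1* replicate 1, -0.28 in replicate 2 and 0.11 in *din1Δ*. The *dhp1-1* replicates differed by as much as their mean of -0.19 ± 0.14 (SD, n = 2), which did not pass the test (95% interval -0.37 to 0.00, adjusted p = 0.134). Of the 55 probes, 31 were below 0 on both *dhp1-1* arrays, 2 above 0 on both and 22 of opposite sign. In *din1Δ* 36 of 55 probes were above 0, and 40 were above both *dhp1-1* values, yet the difference of -0.30 between the mutants did not pass the test (95% interval -0.62 to 0.03, adjusted p = 0.242). The first probe of the run stood apart from the rest at -1.22, -1.03 and -1.69, low on all 3 arrays.

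**Figure D3:**
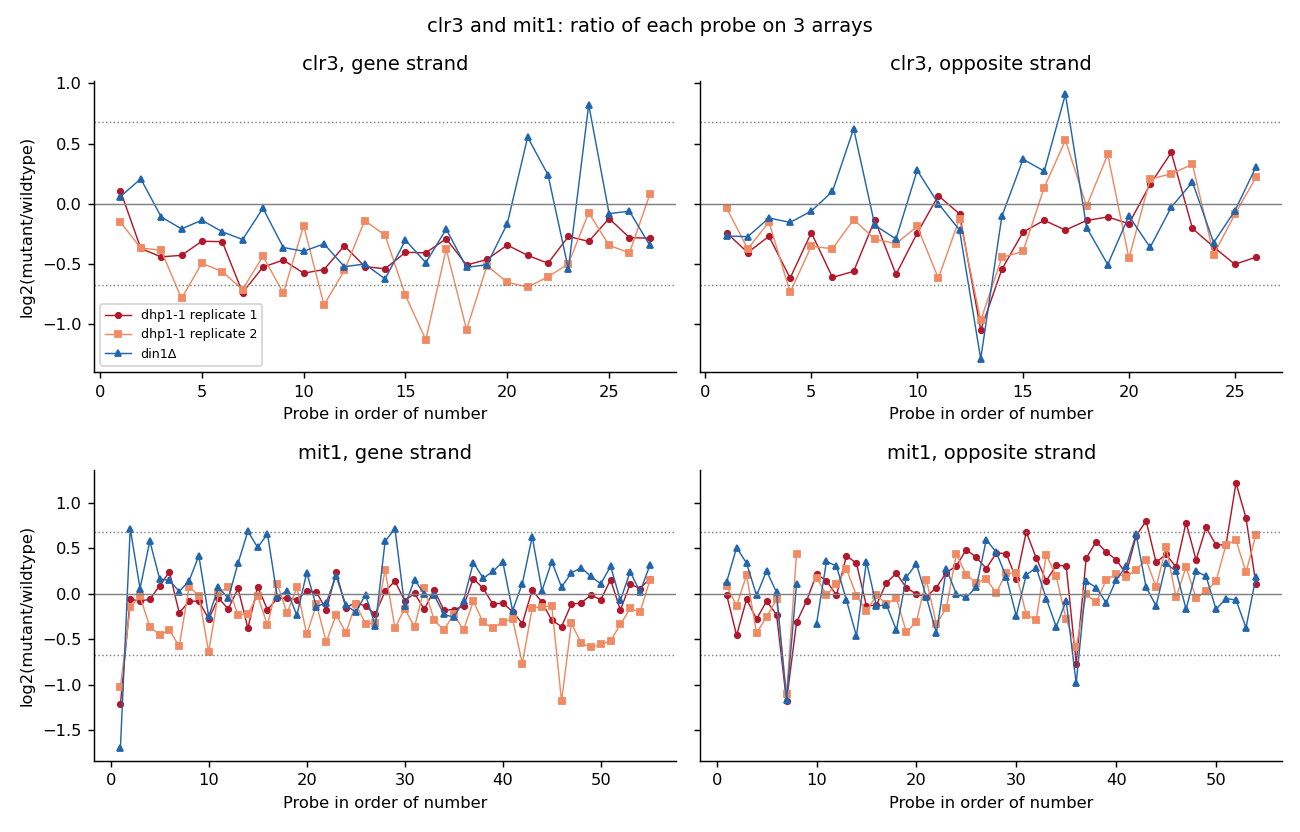
Log2(mutant/wildtype) of each probe of *clr3* (top) and *mit1* (bottom) in order of probe number, on the gene strand (left) and the opposite strand (right), with 1 line per array and 1.6-fold as dotted lines. The *dhp1-1* lines of *clr3* stay below 0 over nearly the whole gene strand, and those of the *mit1* opposite strand lie higher at the right end, with single low probes shared by all 3 arrays.

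On the opposite strand *mit1* was at 0.22 and 0.05 in *dhp1-1* and 0.03 in *din1Δ*, a mean of 0.14 ± 0.12 (SD, n = 2; adjusted p = 0.285). The mean hides a slope along the run. In the first of 4 sections *dhp1-1* stood at -0.11 and -0.06, and in the fourth at 0.59 and 0.28, while *din1Δ* stood at 0.00 and 0.07. In that last section 1 of 13 probes was above background in the wildtype channel of each array, against 12 and 4 of 13 in the *dhp1-1* channel and 1 of 13 in the *din1Δ* channel. In the third section, at 0.28 and 0.01, 13 and 6 of 13 probes were above background in the *dhp1-1* channel and 4 and 4 in wildtype, so more detected probes did not mark the last section alone. On the whole array of replicate 1 more probes were above background in *dhp1-1* than in wildtype too, 84.3% against 71.7%. Over the whole run 6 of the 37 probes below background in wildtype on both *dhp1-1* arrays were above it in the mutant on both, or 16.2%, against 11.03% of all such probes. The last section was singled out after its values were seen and was not tested. Its end borders on *nbr1*, which overlaps that end of *mit1* in the annotation, and the 5 opposite strand probes past the end were at -0.15 and -0.11 in *dhp1-1*. These 5 probes were above background in wildtype on every array. On the *dhp1-1* arrays their median wildtype log2 brightness was 10.49 and 9.72, against 6.42 and 7.26 in the last section. A gain of the size seen at the dim probes would hardly move the ratio of probes this bright. Whether the higher values continued past the end of *mit1* therefore cannot be told from them. A bright probe in this run, the 7th, was at -1.18, -1.10 and -1.17. Together with the bright probes named above in *mit1* and *clr3*, 3 of 267 SHREC probes measured on all arrays were past 1.6-fold lower on all 3, against 0.419% of 172358 probes, and all 3 were among the 5 SHREC probes with a wildtype log2 brightness over 11 on every array. Of all 18971 probes that bright, 1.37% were lower on all 3 arrays. A dye effect at these probes was not tested.

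*clr1*, which encodes a zinc finger protein of the complex, had a ratio of -0.07 in *dhp1-1* replicate 1, -0.29 in replicate 2 and 0.00 in *din1Δ*. The second replicate alone was clearly below the others, with 43 of 45 measured probes below 0, against 27 of 46 in the first. The mean of -0.18 ± 0.16 (SD, n = 2) did not pass the test (95% interval -0.37 to 0.01, adjusted p = 0.156), nor did the difference from *din1Δ* (-0.18, 95% interval -0.51 to 0.14, adjusted p = 0.529). The 4 sections of the run varied little, from -0.11 to 0.02 in replicate 1 and from -0.31 to -0.27 in replicate 2.

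The opposite strand of *clr1* had more RNA in *dhp1-1*. It was at 0.60 in replicate 1 and 0.43 in replicate 2, and at -0.02 in *din1Δ*. Both *dhp1-1* arrays were above *din1Δ*, with a mean of 0.52 ± 0.12 (SD, n = 2), 1.43 times the wildtype level (95% interval 0.33 to 0.70 on the log2 scale, adjusted p = 0.00011, limma). Of the 2 opposite strands called higher, this is the one with many probes, and the share called higher among 1946 tiles that were mostly below background in wildtype was 20.6%. Of 44 probes measured on both *dhp1-1* arrays, 42 were above 0 on both and 0 below 0 on both. In *din1Δ* 21 of 46 were above 0, and 39 of 44 probes were below both *dhp1-1* values. The difference from *din1Δ* was 0.53 (95% interval 0.21 to 0.86, adjusted p = 0.0245, limma), and on the shared slide alone 0.61. This call was lost in 5 of 10 alternatives with a test, with an adjusted p of 0.0536 to 0.384, and the direction was the same in each. Among the tiles that were mostly below background in wildtype, 7.97% were called higher in this difference.

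The gain reached over the whole of *clr1* but was not even. The 4 sections of the opposite strand were at 0.74, 0.51, 0.52 and 0.62 in replicate 1 and at 0.65, 0.52, 0.31 and 0.24 in replicate 2, so that both replicates were highest in the first section and only the second fell off along the run. In *din1Δ* the same sections were at 0.13, 0.00, -0.01 and -0.19. Across the run 44 of 46 probes were above background in the *dhp1-1* channel of replicate 1 and 30 in that of replicate 2, against 23 and 11 in the wildtype channels of the same arrays. Over all numbered probes the shares were 84.3% and 71.0% in the *dhp1-1* channels and 71.7% and 67.3% in wildtype. On the *din1Δ* array 12 probes were above background in the mutant and 19 in wildtype. Of the 23 probes that were below background in wildtype on both *dhp1-1* arrays, 10 were above it in the mutant on both, or 43.5%, against 11.03% of the 42161 such probes on the whole array. For these 10 probes the mean *dhp1-1* signal of both arrays was 1.30 to 2.25 times that of wildtype, after loess and Aquantile normalization, with a median of 1.597. These are ratios of measured signals, with wildtype not well above background. The 10 probes were picked because *dhp1-1* was above background and wildtype was not. Ratios above 1 follow largely from that choice and do not measure the gain of the run. At 1 of the 10 probes replicate 2 was below wildtype. In *din1Δ* 0 of 27 probes below background in wildtype were above it in the mutant, against 7.92% of all such probes.

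**Figure D4:**
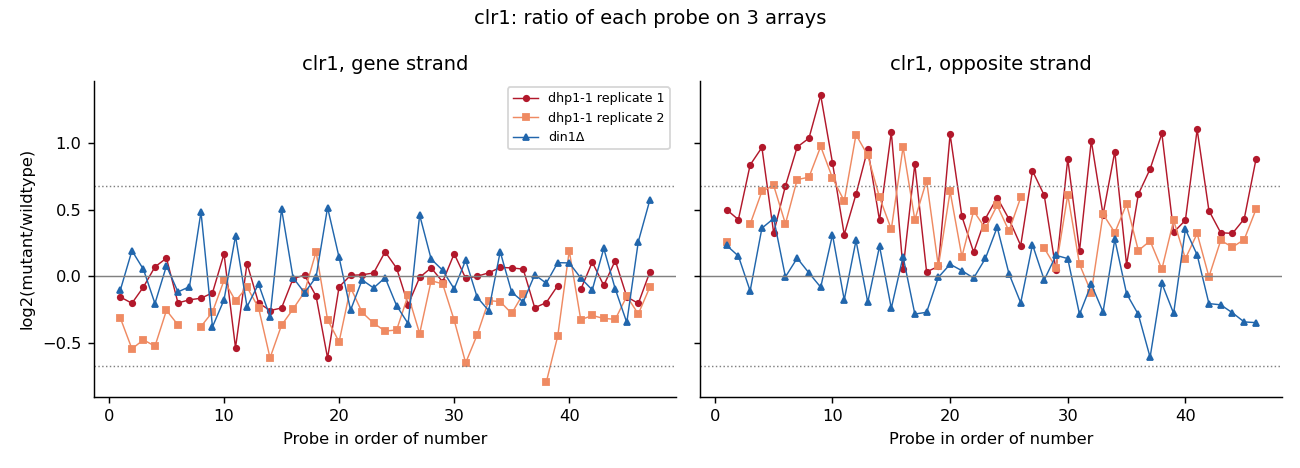
Log2(mutant/wildtype) of each probe of *clr1* in order of probe number, on the gene strand (left) and the opposite strand (right), with 1 line per array and 1.6-fold as dotted lines. On the opposite strand both *dhp1-1* lines stay above 0 at 42 of 44 probes measured on both arrays, and the *din1Δ* line runs around 0.

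Past the highest-numbered end of *clr1*, towards *coq8*, the next 5 opposite strand probes were at means of 0.95 and 0.59 in *dhp1-1* and 0.11 in *din1Δ*, and all were above 0 on both *dhp1-1* arrays. Before the lowest-numbered end, towards *mhf1*, the 5 opposite strand probes were at 0.29, 0.26 and 0.10. The higher signal of *dhp1-1* therefore did not end with the run on the *coq8* side. On the gene strand the 5 probes before the run were at 0.14, 0.29 and 0.34 and those after it at -0.16, -0.05 and 0.34. *mhf1* and the noncoding RNAs SPNCRNA.1569 and SPNCRNA.1570 overlap the ends of *clr1* in the annotation, and RNA of these and RNA antisense to *clr1* cannot be told apart here.

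*clr2*, whose product is needed for SHREC to act at silent loci, was the gene with the lowest ratio in *dhp1-1*. It was at -0.52 in replicate 1, -0.69 in replicate 2 and -0.19 in *din1Δ*. All 4 probes were below 0 on both *dhp1-1* arrays, from -0.66 to -0.35 in replicate 1 and from -0.87 to -0.23 in replicate 2, where 3 of 4 were past 1.6-fold. On the array of replicate 2 the middle 2 probes, at -0.82 and -0.86, were below background in both channels, so the sizes of these folds are not certain. The mean was -0.61 ± 0.12 (SD, n = 2), 1.52-fold lower than wildtype (95% interval -0.79 to -0.42, adjusted p = 1.6e-05, limma). With only the probes above background in both channels the mean was -0.53 (adjusted p = 0.00051). With tiles of 4 probes as the other features, which vary more than tiles of 20, the adjusted p was 8.5e-05. The scanner software's own log ratio put *clr2* lower still, at -1.22, past 1.6-fold. *din1Δ* was above both *dhp1-1* values at 3 of 4 probes, and the difference was -0.42 (95% interval -0.74 to -0.10), which did not pass the test over all features (adjusted p = 0.08002). With tiles of 4 probes as the other features the adjusted p of this difference was 0.270 (limma).

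The 3 opposite strand probes of *clr2* went the other way. They were at 0.73, 0.80 and 0.82 in replicate 1, at 0.66, 0.43 and 0.74 in replicate 2 and at -0.72, 0.11 and -0.17 in *din1Δ*, so that each was higher on both *dhp1-1* arrays than in *din1Δ*. The mean in *dhp1-1* was 0.70 ± 0.12 (SD, n = 2), 1.62 times the wildtype level (95% interval 0.51 to 0.88 on the log2 scale, adjusted p = 2.7e-06, limma). With tiles of 3 probes as the other features the standard error of this mean was 0.145, against 0.090 here. The difference from *din1Δ* was 0.95 (95% interval 0.63 to 1.28, adjusted p = 0.00024, limma). *clr2* was thus the SHREC gene with the lowest gene strand and the highest opposite strand in *dhp1-1*, with 4 and 3 probes behind these values. The 5 gene strand probes on either side were at -0.18 and 0.01 before the run and at 0.03 and -0.11 after it in *dhp1-1*, nearer 0 than the gene. On the opposite strand the 5 probes before the run, towards *vht1*, were at 0.52 and 0.40 and those after it, towards *mrps18*, at -0.14 and -0.06. No annotated gene overlaps *clr2*.

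**Figure D5:**
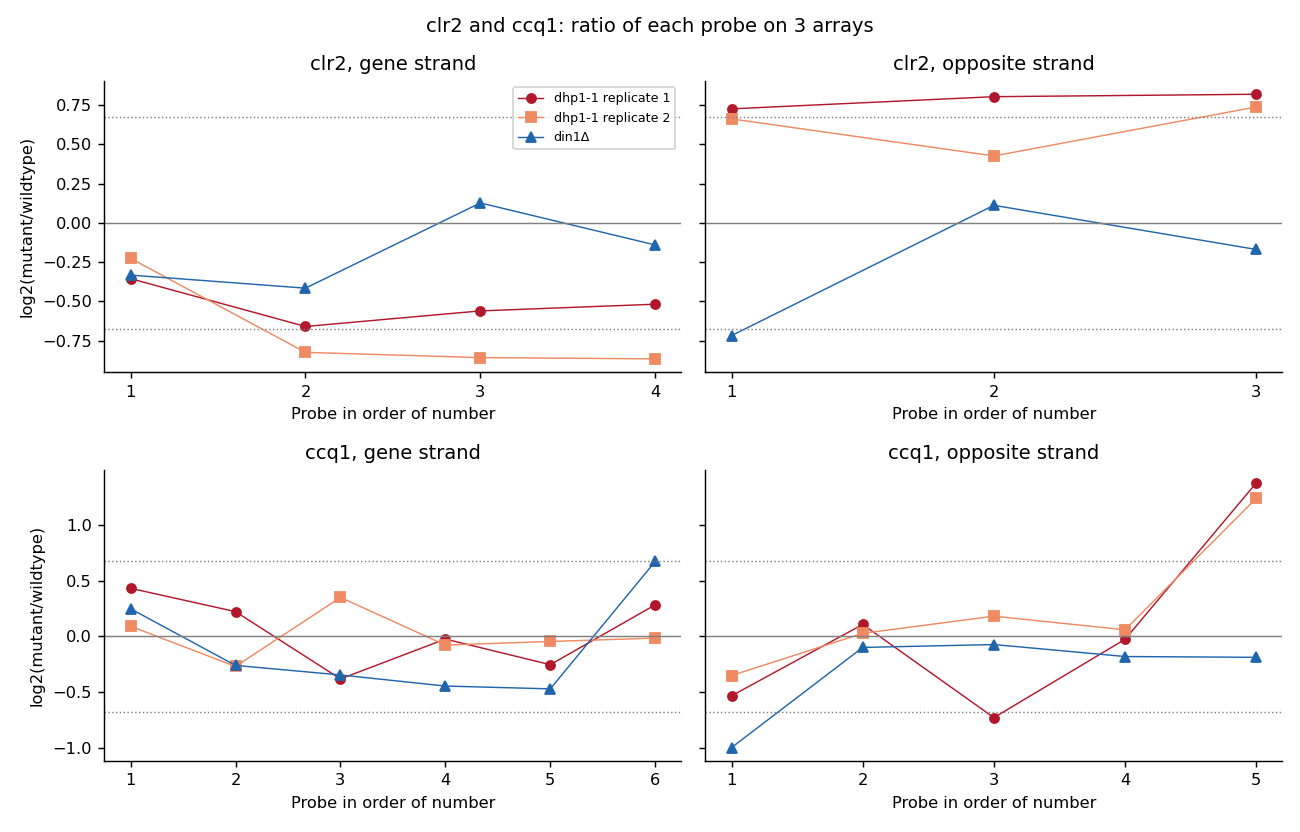
Log2(mutant/wildtype) of each probe of *clr2* (top) and *ccq1* (bottom) in order of probe number, on the gene strand (left) and the opposite strand (right), with 1 line per array and 1.6-fold as dotted lines. At *clr2* both *dhp1-1* lines lie below 0 on the gene strand and above 0 on the opposite strand, and at *ccq1* they lie around 0 except for the last opposite strand probe at 1.37 and 1.23.

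*ccq1*, the gene of the telomere protein, had the smallest change of the 5 in *dhp1-1*. It was at 0.05 in *dhp1-1* replicate 1, 0.01 in replicate 2 and -0.10 in *din1Δ*. The mean of 0.03 ± 0.03 (SD, n = 2) had a 95% interval of -0.16 to 0.21 (adjusted p = 0.858), and the difference from *din1Δ* was 0.13 (95% interval -0.19 to 0.44, adjusted p = 0.678). The sign of the mean was turned by 5 of the other ways to process the arrays, all with values near 0. Single probes of *ccq1* ranged from -0.38 to 0.43 in replicate 1, and 3 of 6 had opposite signs in the replicates. Its opposite strand was at 0.04, 0.23 and -0.31, with a mean of 0.14 ± 0.14 (SD, n = 2) in *dhp1-1* (adjusted p = 0.285) and a difference from *din1Δ* of 0.44 (95% interval 0.12 to 0.77, adjusted p = 0.0658). With only the probes above background in both channels the mean turned to -0.49 and passed the test (adjusted p = 0.0018, limma). This filter drops the last probe, which was below background in wildtype. It keeps no more than 2 probes in replicate 1 and 1 in replicate 2. The turn thus follows in part from the filter, and the direction of this strand is not settled. The difference from *din1Δ* passed in 2 alternatives, with an adjusted p of 0.0021 and 0.0090. The highest value was at the last of its 5 probes, at 1.37 and 1.23 in *dhp1-1* and -0.19 in *din1Δ*. This probe was below background in wildtype on all 3 arrays and above it in the mutant on both *dhp1-1* arrays, where its signal was at least 2.38-fold that of wildtype, taking the faintest detected wildtype signal of an array where the probe's own was fainter. This last probe was picked out by these same values, so its fold is not a separate result. The other 4 probes lay between -0.72 and 0.18 in *dhp1-1*. Beyond that end of the run, towards *ubp5*, the 5 probes of the opposite strand were at -0.15 and -0.16 in *dhp1-1* and -0.13 in *din1Δ*. The 5 probes of the gene strand there were at 0.67 and 0.42 in *dhp1-1* and -0.28 in *din1Δ*. Of the latter, 2 of 5 were above background in wildtype on each array. *ubp5* and several noncoding RNAs overlap *ccq1* in the annotation, and RNA of these and RNA antisense to *ccq1* cannot be told apart.

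Ordered by their mean in *dhp1-1*, the genes run from *clr2* (-0.61) and *clr3* (-0.45) over *mit1* (-0.19) and *clr1* (-0.18) to *ccq1* (0.03). The 95% intervals of *clr2* and *clr3* overlap, those of *mit1* and *clr1* nearly coincide, and that of *ccq1* overlaps both of the latter. In *din1Δ* the order was *clr3* and *clr2* at -0.19 each, *ccq1* at -0.10, *clr1* at 0.00 and *mit1* at 0.11, all from 1 array and without error. The median of the 5 genes was -0.19 in *dhp1-1* and -0.10 in *din1Δ*. Among the 31 other placed genes, 7 were lower, 2 higher and 22 did not pass the test in *dhp1-1*, with a median of -0.10 and a range of -0.40 to 0.51, against a median of 0.02 over all tiles. Of all features, 10.5% were called lower and 18.8% higher. None of these 31 had a mean below that of *clr2* or *clr3*. Of the 31, 8 differed between *dhp1-1* and *din1Δ*, 6 lower and 2 higher in *dhp1-1*, against 0 of the 5 SHREC genes and 13.6% of all features. With 5 genes these counts do not set SHREC apart from the others. The gene nearest to each SHREC gene over the 3 arrays, by Euclidean distance of the log2 ratios among the 31, was *act1* (actin) for *clr3* at a distance of 0.17 and for *clr2* at 0.36, *cdc20* (the catalytic subunit of DNA polymerase epsilon) for *mit1* at 0.099, *pcu4* (a cullin) for *clr1* at 0.13, and *chp1* (a chromodomain protein of the RITS complex) for *ccq1* at 0.17. *act1* itself was at -0.30 and -0.45 in *dhp1-1* and at -0.32 in *din1Δ*.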

How the data were processed

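The authors deposited scanner output of 3 two-colour Agilent tiling arrays (Feature Extraction 10.7.3.1) with unnormalized spot intensity values, flags and the log10 ratio of Cy5 over Cy3. They also deposited a log2 table, which holds that ratio and 0 where its p-value was 0.05 or more. Median spot intensities were corrected with normexp (offset 50), which shrinks the ratios of dim probes, and normalized by loess per array in limma 3.58.1 (R 4.3.3). Spots called outliers were left out (295, 1345 and 645), and 0 were saturated. With 3 arrays the precision is limited by their number. Means of probe ratios were taken over 8702 tiles, each of 20 probes of 1 strand, 36 genes and 5 opposite strands. limma (lmFit, eBayes) tested *dhp1-1* against 0 and against *din1Δ*, and p-values were adjusted by Benjamini-Hochberg for 8743 features. Most of the spread is thus borrowed from tiles, and *din1Δ* is assumed to vary like *dhp1-1*. Tables were made with Python 3.11.15 and pandas 2.3.3, and the processing was tested on simulated data.

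The other 31 genes were placed by matching mean deposited ratios over runs of probes to the ratios in the study's list of silencing factors. The match used *dhp1-1* replicate 1 and *din1Δ*, so the places of these genes rest on the same arrays as their ratios. All 36 genes matched a run, 26 of them 1 run only. Where more runs matched, the lowest-numbered was taken for the other genes. *clr1* and *clr3* matched 2 runs that differ by 1 probe. The placed genes followed the annotated order in all of 10, 12 and 10 neighbouring pairs on chromosomes I, II and III. Names and neighbours come from RefSeq ASM294v3. The array and the study name other builds, so no coordinates are given, and the strand of each gene was not read from the annotation. The members, the lists and the tests were chosen with earlier results of these data known. The named genes are the 5 members, the nearest listed gene of each and the annotated neighbours of a flank. The alternatives changed the background correction, the normalization, the source of the ratio, the filter on dim spots, the average over probes, the tile size, the moderation of the spread, the slide and the replicates used.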

Additional observations from a re-analysis of the deposited data

Results flagged for a closer look

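The opposite strand of *clr1* drew attention because its ratio differed between the mutants, with *dhp1-1* above *din1Δ* by 0.53 on the log2 scale (95% interval 0.21 to 0.86, adjusted p = 0.0245, limma), at 0.60 and 0.43 against -0.02. This call was lost in 5 of 10 alternatives with a test (adjusted p of 0.0536 to 0.384). The opposite strand of *clr2* differed in the same direction, by 0.95 (95% interval 0.63 to 1.28, adjusted p = 0.00024, limma), at 0.78 and 0.61 against -0.26, from 3 probes, and was lost with the deposited table alone (adjusted p = 0.268). With tiles of 3 probes as the other features the adjusted p at *clr2* was 0.0027 (limma). Both differences rest on 1 *din1Δ* array, and they include any difference between the wildtype strains p1087 and p344.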

How the results depend on the processing

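*clr2* and *clr3* stayed lower in *dhp1-1* under each alternative, from -1.22 to -0.44 for *clr2* and from -0.56 to -0.40 for *clr3*. The opposite strand of *clr1* kept its direction from 0.43 to 0.99 and that of *clr2* from 0.61 to 0.89. These 4 results passed the test in each alternative that has one except the deposited log2 table, whose zeros left 13 of 8702 tiles called, against 2545. That table called 0 genes and 0 opposite strands (2 and 2 at an unadjusted p of 0.05) against wildtype, and 0 opposite strands against *din1Δ* (1 unadjusted). For the *clr1* opposite strand the difference from *din1Δ* did not pass without background correction (0.54, adjusted p = 0.0540), with the deposited table (0.78, 0.384), with probes above background in 1 channel (0.54, 0.0536) or in both (0.39, 0.349) or with the median over probes (0.49, 0.0763). The count of opposite strands that differed from *din1Δ* was thus 1 without background correction, 1 with probes above background in both channels and 1 with the median. With an intensity trend 1 gene differed from *din1Δ* (*clr2*, adjusted p = 0.0333), and 1 gene (*clr2*) was past 1.6-fold under 3 settings, the ratio of the scanner, the values as deposited and the median, with 0 to 1 genes when a replicate was left out (1, *clr2*, without replicate 1). With probes above background in both channels 4 opposite strands passed against wildtype. Those of *clr1* and *clr2* were higher and those of *clr3* (-0.37) and *ccq1* (-0.49, adjusted p = 0.0018, limma) lower. The value of *ccq1* came from no more than 2 probes in replicate 1 and 1 in replicate 2, without its highest probe. That of *mit1* turned to -0.060. *ccq1* turned to -0.057 with median centring, -0.033 when the ratio came from the scanner, -0.035 when it came from the deposited table and -0.020 with either filter on dim probes, and its difference from *din1Δ* turned to -0.078 with the deposited table. The opposite strand of *clr3* passed against wildtype in 6 of 10 alternatives (lowest adjusted p = 0.0107), and that of *ccq1* differed from *din1Δ* with an intensity trend (adjusted p = 0.0090) and with probes above background in 1 channel (0.0021). The cause of the other changes was not tested. The alternatives for the difference at the opposite strands, for the counts of opposite strands and for the second matching run were chosen after seeing the data. No paired analysis was possible because *din1Δ* has a single array, so that no more than 1 pair could be formed.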
